A study of Mus musculus with 18 samples.

Results

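The response to a menin-MLL inhibitor was compared between mouse leukemia cells that carry a nuclear MLL fusion partner and cells that carry a cytoplasmic one. The members are all 18 libraries of the series and the 11238 of 23418 listed genes with an RPKM (reads scaled to gene length and library depth) of at least 1 in at least 3 libraries. Cells of C57BL/6 origin, each transformed by one fusion construct (MLL-AF9, or MLL-AF6, or else MLL-AF1p), were kept for 6 days in 6 µM MI-2-2, a small-molecule blocker of menin binding to MLL, or in DMSO alone. Every culture held 0.25% DMSO, started at one common cell density and got fresh medium with compound or vehicle, at that density, on day 3. Each of the 6 groups (MLL-AF9 DMSO, MLL-AF9 MI-2-2, MLL-AF6 DMSO, MLL-AF6 MI-2-2, MLL-AF1p DMSO and MLL-AF1p MI-2-2) had 3 libraries of polyA RNA. The labels name no untransformed cells and no mice, and do not say that replicates were separate cultures, so a p-value here measures the spread between libraries, which may be technical.

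MLL (Mll1 in the table) is a histone methyltransferase that keeps developmental genes such as the Hoxa cluster active, and menin tethers it and its leukemia fusions to those genes. AF9 (gene Mllt3) is a nuclear protein that brings the elongation machinery and DOT1L to chromatin. AF6 (gene Mllt4) and AF1p (gene Eps15) act in the cytoplasm, at cell junctions and in endocytosis, and join to MLL through stretches that let the fusion protein pair with itself. The contrast was the MI-2-2 response of MLL-AF9 minus the mean of the responses of MLL-AF6 and MLL-AF1p. A response is the difference of mean log2(RPKM + 0.5) between MI-2-2 and DMSO. Only 1 construct had a nuclear partner, so the partner's class and the particular MLL-AF9 cell population cannot be told apart in this design.

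A gene counts as called where limma's adjusted p over all tested genes was under 0.05. The MLL-AF9 response was higher than that of the other constructs for 2636 genes (23.5% of those tested) and lower for 1237 (11%), 3873 in all (34.5%). The median difference over all tested genes was 0.10 on the log2 scale, with a median standard error of 0.13, so the typical gene responded slightly higher in MLL-AF9. Of the calls, 68.1% were higher as the values were deposited, 41.3% after each library was centred on its median gene and 49.5% after quantile normalization. The balance of higher and lower calls thus depended on the scaling, and differences below are to be read against that shift of 0.10. Over all genes centring gave 1475 higher and 2093 lower calls, and quantile normalization gave 1614 and 1645. List counts under these scalings are to be read against those totals. Of all tested genes, 6148 (54.7%) had a 95% interval of the difference that lay within 1.5-fold in both directions. Among called genes, 327 were higher and 187 lower by at least 1 on the log2 scale.

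The 2 parts of the contrast, MLL-AF9 against MLL-AF6 and MLL-AF9 against MLL-AF1p, use the same MLL-AF9 libraries. Both parts and the contrast were called with one sign for 1264 higher genes (11.2%) and 493 lower genes (4.39%). Of those 1264 genes, 340 rose in MLL-AF9 with no call in either other construct, 223 fell in both others with no call in MLL-AF9, and 186 rose in all constructs but most in MLL-AF9. Of the 493 lower genes, 142 fell in all constructs, 121 fell only by the MLL-AF9 call, and 57 rose only by the calls of both others. A call in one construct and none in another is a description of these patterns, and the test of the difference is the contrast itself.

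Each construct singled out in the same way gave a like number of calls. MLL-AF6 against the mean of the others gave 3562 called genes (31.7%), and MLL-AF1p against the mean of the others gave 3776 (33.6%). The median size of the difference, without sign, was 0.25 for MLL-AF9, 0.24 for MLL-AF6 and 0.25 for MLL-AF1p. MLL-AF9 was the construct farthest from the mean of the others in 3943 genes (35.1%), MLL-AF6 in 3557 (31.7%) and MLL-AF1p in 3738 (33.3%). The cytoplasmic pair also differed from each other: the MLL-AF6 and MLL-AF1p responses differed for 3495 genes (31.1%). At differences of at least 1 on the log2 scale, called or not, the counts were 560 genes for MLL-AF9, 437 for MLL-AF6 and 444 for MLL-AF1p.

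**Figure D1:**
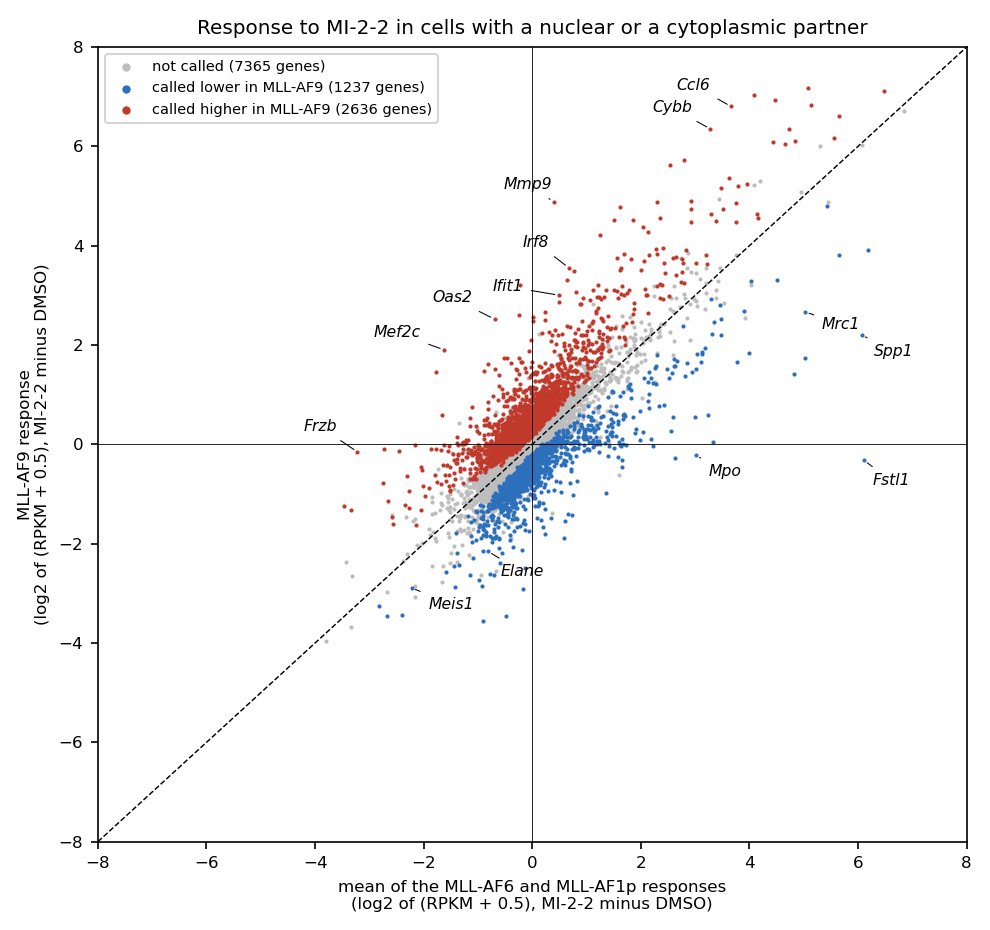
Response to MI-2-2 of each tested gene, as log2 of (RPKM + 0.5) in MI-2-2 minus DMSO, in MLL-AF9 cells (vertical) and as the mean of MLL-AF6 and MLL-AF1p cells (horizontal). Red points are the 2636 genes called higher and blue points the 1237 genes called lower in MLL-AF9, and the dashed line marks equal responses. Most points lie close to that line, and Fstl1 and Mmp9 lie far from it on opposite sides.

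Interferon-stimulated genes were the list with the highest median difference among the 26 pathway, complex and cell-state lists examined. Interferons signal through cell-surface receptors to a complex of transcription factors that holds STAT2 and IRF9 and binds an element in the promoters of antiviral genes. The element holds paired copies of GAAA, and the IRF family of transcription factors recognizes it. Of the 23 tested members, 22 were called higher in MLL-AF9 and 0 lower, 17 of them in both parts of the contrast. The median difference was 1.47, against 0.10 over all genes. The same count, 22 higher, was found under median centring, quantile normalization, voom, thinned reads and with each library left out.

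The promoters of these genes are shown because the binding element can be read in them. Of the 23 members, 19 had an entry in the RefSeq promoter table (GRCm38.p6). The letters GAAANNGAAA, on either strand, stood in the 250 bases before a start site of 12 of those 19 genes (63.2%), against 3.46% of all 27025 genes in that table. Neighbouring matches may overlap by one GAAA. The 120 bases before the start site are printed below for the 4 members of largest difference with a match in that window, and for Irf7, which has none. They run 5′ to 3′ in the direction of the gene, and capitals mark the letters of a match (GAAANNGAAA or its other strand, TTTCNNTTTC).
Ifit1, chr19:34640769-34640888, plus strand: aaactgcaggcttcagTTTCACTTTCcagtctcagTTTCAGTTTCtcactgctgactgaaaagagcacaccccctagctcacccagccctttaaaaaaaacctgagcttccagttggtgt
Oas3, chr5:120777660-120777779, minus strand: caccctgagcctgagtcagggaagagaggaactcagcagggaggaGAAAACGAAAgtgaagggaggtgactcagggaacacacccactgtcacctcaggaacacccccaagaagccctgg
Trim30a, chr7:104465194-104465313, minus strand: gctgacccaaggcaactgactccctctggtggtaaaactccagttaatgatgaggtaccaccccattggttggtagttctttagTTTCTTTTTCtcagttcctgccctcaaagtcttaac
Rsad2, chr12:26456453-26456572, minus strand: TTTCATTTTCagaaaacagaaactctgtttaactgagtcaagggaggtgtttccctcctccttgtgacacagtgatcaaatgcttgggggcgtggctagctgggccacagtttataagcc
Irf7, chr7:141266425-141266544, minus strand: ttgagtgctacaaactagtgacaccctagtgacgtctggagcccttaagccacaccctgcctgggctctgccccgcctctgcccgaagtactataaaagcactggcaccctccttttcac

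The letters were rarer in the genes called by the contrast at large. They stood before 59 of the 934 genes with an entry among those called higher in both parts (6.32%), before 18 of 359 called lower (5.01%), and before 270 of 8349 tested genes (3.23%). Bst2, the one interferon-stimulated gene that was not called, also holds a match, and Irf7, called at 2.20, does not. A match is a property of the letters and does not show binding.

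Oas2, an enzyme that senses double-stranded RNA, led the list. Its RPKM was 4.16, 4.67 and 5.46 in MLL-AF9 DMSO and 34.9, 22.2 and 33.3 in MLL-AF9 MI-2-2. In MLL-AF6 it was 8.32, 6.89 and 7.47 in DMSO and 1.01, 1.94 and 1.71 in MI-2-2, and in MLL-AF1p it was 3.62, 3.94 and 3.54 in DMSO and 5.28, 5.07 and 7.61 in MI-2-2. The MI-2-2 libraries stood above the DMSO libraries in MLL-AF9 and MLL-AF1p and below them in MLL-AF6, with no overlap in any construct. The response was 2.52 in MLL-AF9, 0.61 in MLL-AF1p and -2.0 in MLL-AF6, each called, and the difference was 3.22 ± 0.24 (SE; adjusted p = 1.72e-07).

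Ifit1, which binds foreign RNA ends, had a very low level without the drug in each construct. Its RPKM was 0.24, 0.19 and 0.36 in MLL-AF9 DMSO and 7.73, 3.82 and 5.87 in MLL-AF9 MI-2-2. In MLL-AF1p it was 0.38, 0.41 and 0.26 in DMSO and 1.52, 1.41 and 2.24 in MI-2-2, and in MLL-AF6 it stayed between 0.28 and 0.66 in all 6 libraries. Ifit1 thus rose in MLL-AF9 by 3.00 and in MLL-AF1p by 1.37 and was not called in MLL-AF6 (-0.39). The difference of 2.51 ± 0.24 (SE) had an adjusted p of 2.79e-06.

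The regulators of the pathway were called with its targets. Irf7, an interferon-induced factor that amplifies the response, had an RPKM of 2.10, 1.99 and 2.65 in MLL-AF9 DMSO and 11.6, 6.30 and 8.69 in MLL-AF9 MI-2-2, with a difference of 2.20. In MLL-AF6 its RPKM went from 4.80, 3.94 and 4.31 in DMSO to 1.33, 1.51 and 1.49 in MI-2-2, a response of -1.32. Irf9 (difference 1.62) and Stat2 (0.88), which encode parts of the DNA-binding complex, were each called higher in both parts of the contrast. Usp18, which restrains interferon receptor signalling, was also called higher (1.74).

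The 3 constructs did not split by partner class on this list. Of the 23 members, 22 rose in MLL-AF9 and 0 fell, where over all genes 28.5% rose and 27.9% fell. In MLL-AF6, 2 rose and 14 fell, against 18% and 38.9% of all genes. In MLL-AF1p, 13 rose and 1 fell, against 19.1% and 26.3%. The median responses were 1.58 in MLL-AF9, 0.43 in MLL-AF1p and -0.53 in MLL-AF6. By the test of their difference, the MLL-AF6 response was below that of MLL-AF1p in 17 of the 23 genes, against 2187 of all 11238. Rtp4, an interferon-induced chaperone, shows it: it rose by 3.31 in MLL-AF9 and 2.41 in MLL-AF1p and fell by 1.15 in MLL-AF6, and its MLL-AF9 against MLL-AF1p part alone was not called (adjusted p = 0.14).

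The level of the list shows the same order. Averaged over the 23 genes, log2(RPKM + 0.5) was 1.57 to 1.75 in MLL-AF9 DMSO and 2.91 to 3.65 in MLL-AF9 MI-2-2. It was 2.20 to 2.34 and 1.66 to 1.81 in MLL-AF6, and 2.04 to 2.17 and 2.63 to 2.97 in MLL-AF1p. MLL-AF9 had the lowest level of the constructs without the drug and the highest level with it. Of the 23 genes, 11 were lower and 2 higher in MLL-AF9 under DMSO, and 21 were higher and 1 lower under MI-2-2. Of all 11238 tested genes, 3908 were lower and 3096 higher under DMSO, and 3198 were higher and 1999 lower under MI-2-2. The list's lower gene under MI-2-2 was Gbp3, a guanylate-binding protein, whose response was not called in MLL-AF9 (0.09) and which fell in both others.

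Interferon transcripts themselves were close to absent, in a check chosen after the values were seen. Of 18 interferon ligand genes in the table, 14 were listed at 0 in every library, and the highest value of any of them in any library was 0.16 RPKM. The receptor genes were present: Ifnar1 lay between 11.6 and 20.3 RPKM and Ifnar2 between 27.4 and 37.5 over the 18 libraries.

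**Figure D2:**
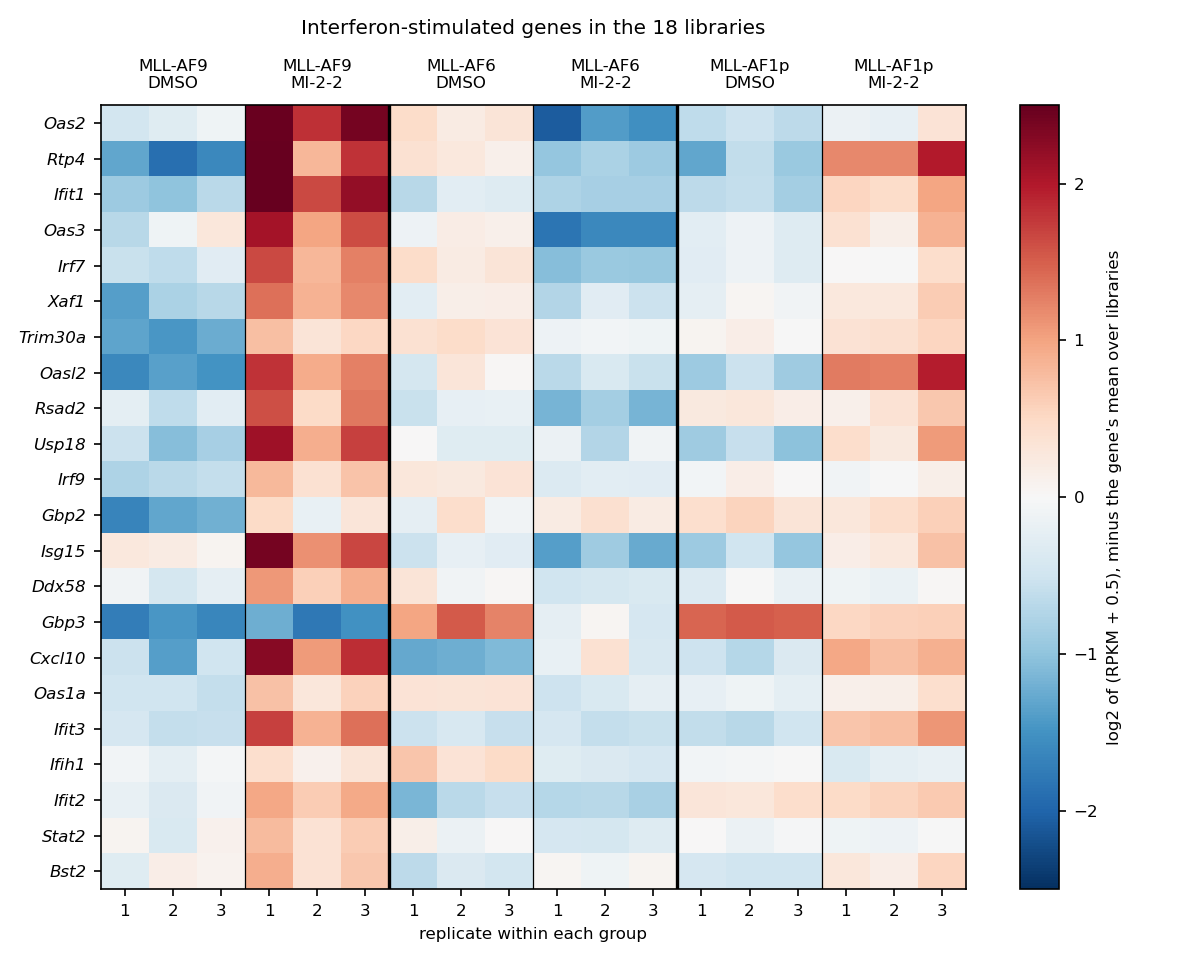
Of the 23 tested interferon-stimulated genes, 22 (rows, ordered by the size of the difference) are shown in the 18 libraries (columns, replicates 1 to 3 of each group). Colour is log2 of (RPKM + 0.5) minus the gene's mean over the libraries. MLL-AF9 MI-2-2 libraries are the highest for most genes, and MLL-AF6 MI-2-2 libraries lie below MLL-AF6 DMSO libraries for Oas2, Oas3 and Irf7.

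Genes of the mature neutrophil were called higher in MLL-AF9 in 13 of 25 tested members (52%, against 23.5% of all genes), and 1 was lower (4%, against 11%). The median difference was 0.97, and 0.63 without replicate 1 of MLL-AF9 DMSO. Secondary and tertiary granules are made late in neutrophil maturation, and 24 of the 25 genes rose in MLL-AF9, 22 in MLL-AF1p and 21 in MLL-AF6. Over all genes 28.5%, 19.1% and 18% rose in that order. The median responses were 3.66 in MLL-AF9, 2.80 in MLL-AF1p and 2.77 in MLL-AF6. In bulk RNA, more cells of a maturing type and more RNA per cell cannot be told apart. The calprotectin genes S100a8 (difference -0.14) and S100a9 (-0.16) and the lipocalin gene Lcn2 (0.30) were not called.

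Mmp9, the gelatinase of tertiary granules, had the largest positive difference of the genes that the naming rule covers. Its RPKM was 0.44, 0.84 and 0.52 in MLL-AF9 DMSO and 31.6, 27.3 and 36.9 in MLL-AF9 MI-2-2. The other groups were all high: 15.2, 28.0 and 21.8 in MLL-AF6 DMSO, 28.0, 28.4 and 49.4 in MLL-AF6 MI-2-2, 28.3, 34.2 and 30.1 in MLL-AF1p DMSO and 36.8, 31.9 and 30.7 in MLL-AF1p MI-2-2. The MLL-AF9 DMSO libraries stood below all other 15, and with MI-2-2 the constructs overlapped. The difference was 4.49 ± 0.27 (SE; 95% interval 3.91 to 5.07; adjusted p = 2.26e-08), and the MLL-AF9 level was lower by 4.57 under DMSO and within -0.49 to 0.33 of the others (95% interval) under MI-2-2.

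Cybb, the catalytic subunit of the phagocyte NADPH oxidase, rose in each construct. Its RPKM was 5.21, 1.24 and 1.66 in MLL-AF9 DMSO and 277, 163 and 256 in MLL-AF9 MI-2-2. It was 27.8, 18.9 and 18.5 against 227, 140 and 230 in MLL-AF6, and 7.51, 10.1 and 8.20 against 99.5, 93.3 and 94.3 in MLL-AF1p. Its rise was 6.35 in MLL-AF9, 3.41 in MLL-AF1p and 3.15 in MLL-AF6, from a level that was lowest in MLL-AF9. Retnlg (difference 2.93), the formyl peptide receptor Fpr1 (2.21), the collagenase Mmp8 (2.10), Camp (1.39) and Ltf (0.97) were also called higher.

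Primary granule genes, which are made earlier, at the promyelocyte stage, went the other way. Of 11 tested, 7 were lower in MLL-AF9 (63.6%, against 11% of all genes) and 1, Ms4a3, was higher (0.93), with a median difference of -0.90. The 7 include the regulators Cebpa and Gfi1 and the granule protein gene Nkg7. Elane, neutrophil elastase, fell by 2.16 in MLL-AF9 and by 1.31 in MLL-AF6 and was not called in MLL-AF1p (-0.32). Prtn3, proteinase 3, differed by -1.01 and Cst7 by -0.90. In this list too the cytoplasmic pair was split, since 8 of the 11 genes fell in MLL-AF6 and 0 in MLL-AF1p, and 7 fell in MLL-AF9. Over all genes 38.9%, 26.3% and 27.9% fell in that order.

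Mpo, myeloperoxidase, set MLL-AF9 apart by the absence of a rise. Its RPKM was 0.28, 0.30 and 0.52 in MLL-AF9 DMSO and 0.18, 0.34 and 0.20 in MLL-AF9 MI-2-2. It was 0.40, 0.03 and 0.13 against 6.57, 10.7 and 2.83 in MLL-AF6, and 41.0, 24.8 and 40.4 against 253, 226 and 234 in MLL-AF1p. The drug raised it in both others without overlap, to levels that differed between them, while in MLL-AF9 all 6 libraries were under 1 RPKM. The difference was -3.24 ± 0.40 (SE; adjusted p = 2.58e-05).

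Macrophage genes were called in both directions. Of 23 tested monocyte and macrophage genes, 8 were higher (34.8%, against 23.5% of all genes) and 6 lower (26.1%, against 11%), with 3 lower under voom. Most rose in each construct: 19 in MLL-AF9, 18 in MLL-AF1p and 15 in MLL-AF6, where over all genes 28.5%, 19.1% and 18% rose. Higher were the melanosomal and lysosomal glycoprotein Gpnmb (2.46), the protease Ctss (1.66), the chemokine receptor Ccr2 (1.46), the growth factor receptor Csf1r (1.29) and the transcription factor Irf8 (2.88). Lower were the mannose receptor Mrc1 (-2.36), the Fc receptor Fcgr1 (-2.12), the transcription factor Klf4 (-1.27) and Cd68 (-1.10). For Fcgr1 and Cd68 only 1 part of the contrast was called. Fcgr1 had unequal replicates in MLL-AF9 DMSO (27.6, 2.63 and 6.17 RPKM), and its MLL-AF9 response was not called (-0.46). The scavenger receptor Msr1, outside the list, behaved like Mrc1.

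Mrc1 and Msr1 rose in all constructs, and least in MLL-AF9. Mrc1 had an RPKM of 0.24, 0.08 and 0.08 in MLL-AF9 DMSO and 2.53, 5.33 and 3.07 in MLL-AF9 MI-2-2. With MI-2-2 it reached 9.31, 11.2 and 10.8 in MLL-AF1p and 40.2, 38.4 and 32.3 in MLL-AF6, from 0.06 to 0.16 in their DMSO libraries. Msr1 reached 0.77, 1.04 and 0.98 RPKM in MLL-AF9 MI-2-2, 20.8, 24.1 and 24.2 in MLL-AF6 MI-2-2 and 10.2, 10.2 and 10.6 in MLL-AF1p MI-2-2. All DMSO libraries were near 0 for both genes, so here the difference lay in the level with the drug (Msr1 difference -3.40 ± 0.11, SE).

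Irf8, which directs progenitors to the monocyte and dendritic lineages, differed mostly in the level without the drug. Its log2 level in MLL-AF9 was below the mean of the others by more under DMSO (-4.10) than under MI-2-2 (-1.21). Its RPKM was 0.46, 0.80 and 0.78 in MLL-AF9 DMSO and 13.2, 13.2 and 13.4 in MLL-AF9 MI-2-2. It was 15.9, 28.2 and 20.4 against 36.4, 31.9 and 36.7 in MLL-AF6, and 17.9, 18 and 18.5 against 30.7, 25.8 and 28.0 in MLL-AF1p. Irf8 rose in each construct, by 3.56, 0.73 and 0.62, and the MLL-AF9 libraries with the drug stayed below each DMSO library of the others. The adjusted p of the difference was 5.61e-08.

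Chemokines and cytokines were split as well, with 7 of 18 tested genes higher (38.9%, against 23.5% of all genes) and 4 lower (22.2%, against 11%). All 11 were called in both parts of the contrast. Ccl9 (difference 3.43), Ccl6 (3.15), Ccl3 (2.27), Ccl4 (1.97), the interleukin-1 antagonist Il1rn (1.61), Tnf (1.5) and Cxcl10 (1.27) were higher. Spp1 (-3.86), Ccl7 (-2.28), platelet factor Pf4 (-2.14) and Ccl12 (-0.95) were lower. Ccl9 had an RPKM of 21.1, 12.8 and 15.3 in MLL-AF9 DMSO and 182, 124 and 154 in MLL-AF9 MI-2-2, while all 12 libraries of the others lay between 78.9 and 152. Ccl6 rose in each construct, by 6.80 in MLL-AF9, 2.38 in MLL-AF1p and 4.93 in MLL-AF6.

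Spp1, osteopontin, had a wide spread between replicates of one group. Its RPKM was 119, 14.8 and 35.9 in MLL-AF9 DMSO and 283, 112 and 202 in MLL-AF9 MI-2-2, groups that overlapped. With MI-2-2 it reached 425, 420 and 442 in MLL-AF1p and 1142, 1175 and 1346 in MLL-AF6, from 6.71 to 25.5 in their DMSO libraries. The difference of -3.86 had a standard error of 0.70 (adjusted p = 0.000696).

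Class II antigen presentation genes were called higher for 6 of 11 (54.5%, against 23.5% of all genes) and lower for 1 (9.09%, against 11%). The median was 1.05, and 0.66 without replicate 2 of MLL-AF9 DMSO. Cd74, the invariant chain, rose in each construct and most in MLL-AF9 (5.20, 3.58 and 3.98 in MLL-AF9, MLL-AF6 and MLL-AF1p). H2-Aa, an alpha chain, fell in each construct and least in MLL-AF9 (-1.25, -3.65 and -3.29), where its DMSO mean of 2.31 RPKM was the lowest of the constructs. Cd80, a costimulatory ligand, rose in MLL-AF9 (2.56) and MLL-AF6 (0.41) and fell in MLL-AF1p (-0.39). A positive difference on this list thus stood for a larger rise in one gene and a smaller fall in another.

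**Figure D3:**
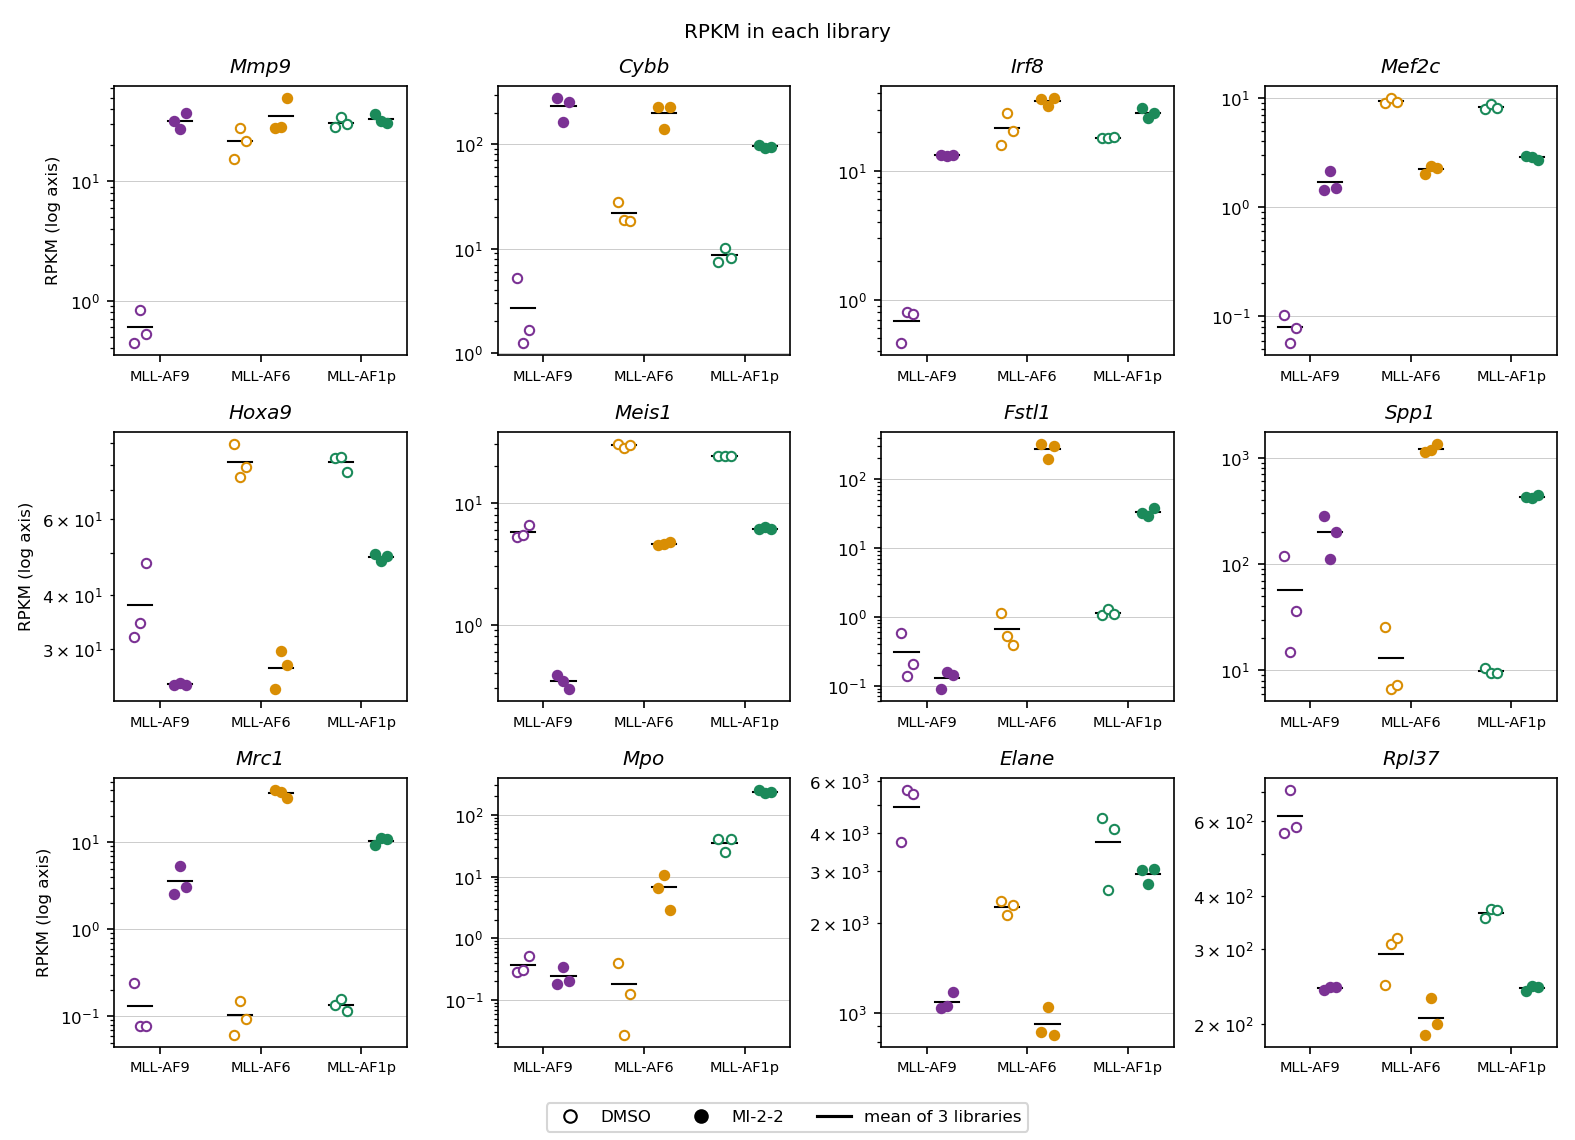
RPKM of 12 genes in each library, on a log axis, for DMSO (open circles) and MI-2-2 (filled circles) in the 3 constructs, with a line at the mean of 3 libraries. Mmp9, Cybb, Irf8 and Mef2c start lowest in MLL-AF9 DMSO, while Fstl1, Spp1, Mrc1 and Mpo reach higher levels with MI-2-2 in MLL-AF6 and MLL-AF1p than in MLL-AF9.

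Fstl1, a secreted glycoprotein of the follistatin family, had the largest negative difference of the genes covered by the naming rule. Its RPKM was 0.57, 0.14 and 0.21 in MLL-AF9 DMSO and 0.09, 0.16 and 0.14 in MLL-AF9 MI-2-2. It was 1.12, 0.52 and 0.39 against 322, 194 and 299 in MLL-AF6, and 1.06, 1.28 and 1.10 against 32.4, 28.9 and 38.1 in MLL-AF1p. MI-2-2 raised Fstl1 in both constructs with a cytoplasmic partner without overlap, and all 6 MLL-AF9 libraries were under 1 RPKM. The difference was -6.43 ± 0.28 (SE; 95% interval -7.03 to -5.83; adjusted p = 8.31e-10).

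Stac2 (-3.29), Gas6 (-2.92) and Gpr137b-ps (-2.63) also rose in both others. Stac2 and Gas6 were not called in MLL-AF9, and Gpr137b-ps rose there by 0.60. Gas6, a ligand of TAM receptors, had a mean of 4.62 ± 1.2 RPKM (SD, n = 3) in MLL-AF9 DMSO and 3.64 ± 0.26 with the drug, and rose in MLL-AF6 from 0.31 ± 0.18 to 12.6 ± 3.7. Anpep, aminopeptidase N, rose in each construct (1.73, 6.00 and 4.05), from 10.4 ± 2.2 RPKM in MLL-AF9 DMSO and from means under 1 in the others. Mab21l2 and Igfbp7 were highest in MLL-AF9 DMSO and fell there. Mab21l2 went from 52.1 ± 5.8 to 3.97 ± 0.22 RPKM in MLL-AF9, and its means were under 1 in all groups of the others. Igfbp7 rested on unequal replicates (41.3, 2.95 and 9.78 RPKM in MLL-AF9 DMSO). The calls of Igfbp7, Mab21l2 and Gpr137b-ps were lost when whole reads were tested with voom.

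Among the other large positive differences, Tlr13, a receptor for bacterial ribosomal RNA, rose in each construct and most in MLL-AF9 (4.78, with 1.61 in MLL-AF6 and 1.6 in MLL-AF1p). Frzb, a secreted Wnt antagonist, fell by 3.30 in MLL-AF6 and 3.14 in MLL-AF1p. In MLL-AF9 it was not called (-0.15), and its mean there was already near 0 under DMSO (0.10 RPKM). Gp49a, an inhibitory receptor family gene with near-identical copies, differed by 3.02.

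Among transcription factors of myeloid cells, 8 of 21 were higher (38.1%, against 23.5% of all genes) and 5 lower (23.8%, against 11%). Mef2c, a factor active in MLL leukemia stem cells, rose in MLL-AF9 and fell in both others. Its RPKM was 0.10, 0.06 and 0.08 in MLL-AF9 DMSO and 1.42, 2.15 and 1.49 in MLL-AF9 MI-2-2. It was 8.92, 9.95 and 9.25 against 2.00, 2.38 and 2.29 in MLL-AF6, and 7.92, 8.83 and 8.11 against 2.96, 2.89 and 2.71 in MLL-AF1p. With the drug MLL-AF9 overlapped MLL-AF6 and stayed below MLL-AF1p, and the difference was 3.53 ± 0.13 (SE; adjusted p = 1.22e-10).

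Id2, an inhibitor of E proteins, rose in each construct, by 4.47 in MLL-AF9, 1.84 in MLL-AF1p and 4.00 in MLL-AF6, to means of 57.6, 51.2 and 48.8 RPKM in that order. The early growth response factors Egr2 (1.52) and Egr1 (1.25), Mef2a (1.03) and Irf4 (0.93) were higher in both parts of the contrast. Maf (-1.04), Cebpa (-0.69) and Gfi1 (-0.53) were lower, and Cebpe (-0.46, adjusted p = 0.049) lost its call in most settings tried. For Cebpa the MLL-AF9 and MLL-AF6 responses were equal at -1.67, and MLL-AF1p was at -0.29.

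The list of MLL fusion target genes holds genes described as bound and activated by MLL fusions, and binding was not measured here. Of 27 tested, the drug lowered 17 with the nuclear partner, 21 with AF6 and 21 with AF1p, with median responses of -0.58, -0.94 and -0.68. Over all genes 27.9%, 38.9% and 26.3% fell in that order. The MLL-AF9 response was higher for 10 (37%, against 23.5% of all genes) and lower for 2 (7.41%, against 11%), and 15 were not called. The median difference was 0.22. The 10 were Mef2c, Id2, Bcl2, Hoxa6, Hoxa11, Hoxa5, Hoxa10, Lmo2, Hoxa9 and Bahcc1, and the 2 were Myb and Meis1. The median was 0.08 with centring and 0.01 with quantile normalization. Over all genes it was 0.10 as deposited, -0.04 with centring and -0.002 with quantile normalization. Without replicate 2 of MLL-AF9 DMSO the median was 0.12, and 5 genes were lower in place of 2.

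Of the 6 tested Hoxa genes of this list 5 were called higher in the contrast, and 3 of them, Hoxa6, Hoxa10 and Hoxa11, in both parts. Hoxa9, the homeobox gene central to MLL leukemia, had an RPKM of 32.0, 34.5 and 47.5 in MLL-AF9 DMSO and 24.8, 24.9 and 24.7 in MLL-AF9 MI-2-2. It was 89.6, 75.0 and 79.0 against 24.2, 29.7 and 27.5 in MLL-AF6, and 83.0, 83.8 and 77.1 against 49.9, 48.0 and 49.3 in MLL-AF1p. With the drug, MLL-AF9 and MLL-AF6 overlapped and MLL-AF1p stayed higher. The difference was 0.56 ± 0.14 (SE; adjusted p = 0.00632), and the part against MLL-AF1p alone was not called (adjusted p = 0.53). For Hoxa10 both parts were called, and its 3 responses were -0.61, -1.70 and -1.35 (difference 0.91). Hoxa6 differed by 1.24 and Hoxa5 by 0.93, while Hoxa7 was not called (0.39, adjusted p = 0.091).

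Meis1, the TALE cofactor of HOXA9, had a difference of the opposite sign to the called Hoxa genes. Its RPKM was 5.27, 5.45 and 6.55 in MLL-AF9 DMSO and 0.38, 0.35 and 0.30 in MLL-AF9 MI-2-2. It was 30.3, 28.2 and 29.9 against 4.48, 4.55 and 4.74 in MLL-AF6, and 24.0, 24.1 and 24.1 against 6.04, 6.27 and 6.04 in MLL-AF1p. Meis1 fell in each construct without overlap, and most in MLL-AF9 (-2.89, -2.56 and -1.89; difference -0.66, adjusted p = 5.14e-05). Myb, a progenitor transcription factor, also fell most in MLL-AF9 (-1.72, -1.36 and -0.40), with a difference of -0.84.

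The drug target and the fusion machinery are encoded by genes with mostly small differences. Of 13 genes of the menin and MLL1 complex, 4 were higher (30.8%, against 23.5% of all genes) and 1, Kat8 (-0.44), was lower (7.69%, against 11%). Mll1 differed by 0.61, and reads of a fusion transcript, where counted there, cannot be told apart from its own. In the same complex Men1, the menin gene (-0.18, adjusted p = 0.32), and Psip1, the chromatin adaptor LEDGF (0.01, adjusted p = 0.95), were not called. Men1 went from 10.6 ± 1.2 to 7.40 ± 0.56 RPKM in MLL-AF9 (SD, n = 3), and the 95% interval of its difference ran from -0.47 to 0.11. Of 20 genes of the super elongation and DOT1L complexes, 7 were higher (35%) and 1, Mllt1 (-0.39), was lower (5%). Under centring 3 were higher, and Dot1l itself was not called (0.16).

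Among 14 genes of the fusion partners and the proteins that bind them, 5 were higher (35.7%, against 23.5% of all genes) and 0 lower. Mllt4, the AF6 gene, had an RPKM of 0.50, 0.63 and 0.74 in MLL-AF9 DMSO and 0.89, 1.5 and 1.02 in MLL-AF9 MI-2-2, and fell in both others (difference 1.68 ± 0.15, SE). Its RPKM was 3.85, 3.67 and 3.89 in DMSO against 1.52, 1.65 and 1.54 in MI-2-2 in MLL-AF6. It was 3.12, 3.98 and 3.41 against 1.26, 1.16 and 1.16 in MLL-AF1p. In the cells that carry a partner's fusion, reads from the fusion transcript and from the gene itself cannot be told apart here. Eps15, the AF1p gene, differed by 0.38 as deposited and lost its call under centring and quantile normalization, and Mllt3, the AF9 gene, was not called (-0.05). Itsn2 (0.88) and Nras (0.79) were called higher in both parts of the contrast.

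Polycomb genes, whose products silence many MLL targets, were higher for 5 of 24 (20.8%, below the 23.5% of all genes) and lower for 1. Bmi1 (0.85) and Phf19 (0.69) led, and the count was 2 higher and 3 lower after centring and 9 higher without replicate 1 of MLL-AF9 DMSO. Of 11 stem and progenitor genes, 3 were higher (27.3%: Bmi1, Lmo2 and Cd93) and 2 lower (18.2%, against 11% of all genes: Egfl7 at -0.90 and Myb).

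Cytosolic ribosomal protein genes were lower in MLL-AF9 in 48 of 53 (90.6%, against 11% of all genes), and 0 were higher. They fell in each construct, in 51 of 53 genes in MLL-AF9, 47 in MLL-AF1p and 49 in MLL-AF6, with median responses of -1.0, -0.48 and -0.48. Over all genes 27.9%, 26.3% and 38.9% fell in that order. Rpl37 had an RPKM of 560, 708 and 578 in MLL-AF9 DMSO and 241, 244 and 244 in MLL-AF9 MI-2-2. It was 248, 308 and 319 against 189, 230 and 200 in MLL-AF6, and 355, 372 and 369 against 240, 245 and 244 in MLL-AF1p. MLL-AF9 DMSO stood above all other libraries, and with the drug MLL-AF9 and MLL-AF1p were at like levels (difference -0.79 ± 0.12, SE).

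The ribosomal protein count depended on the scaling. The median difference was -0.51 as deposited, -0.65 with centring and -0.15 with quantile normalization, which left 16 of the 53 genes lower and 1 higher. The same medians over all genes were 0.10, -0.04 and -0.002. Under DMSO the level was higher in MLL-AF9 in 50 of the 53, and under MI-2-2 in 6. Of all 11238 tested genes it was higher in 3096 under DMSO and in 3198 under MI-2-2. Rn45s, the ribosomal RNA precursor that polyA selection should remove, had a share of 1.55% to 1.93% of the counted reads under DMSO in MLL-AF9 and 0.64% to 1.45% in MLL-AF9 MI-2-2, and its part in these differences was not tested. Ribosome biogenesis genes were lower for 6 of 33 (18.2%, against 11% of all genes) and higher for 0, with 12 lower after centring.

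Respiratory chain and ATP synthase genes were lower in MLL-AF9 in 24 of 37 (64.9%, against 11% of all genes) and higher in 0, with a median difference of -0.30. Falls numbered 24 with the AF9 fusion, 2 with AF6 and 4 with AF1p, where over all genes 27.9%, 38.9% and 26.3% fell. Rises numbered 2, 11 and 6 of the 37 in that order, against 28.5%, 18% and 19.1% of all genes. Uqcrc1, a core subunit of complex III, had an RPKM of 175, 186 and 183 in MLL-AF9 DMSO and 107, 112 and 109 in MLL-AF9 MI-2-2, with a difference of -0.66 ± 0.08 (SE). Cyc1, cytochrome c1, fell in MLL-AF9 (-0.24) and rose in MLL-AF6 (0.21) and MLL-AF1p (0.51). The count was 33 lower with centring and 23 with quantile normalization.

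Cell cycle lists stood at different distances from the 23.5% of all genes called higher. Of 32 mitosis genes, 15 were higher (46.9%) and 0 lower, with median responses of 0.37, 0.24 and 0.09, led by the kinesin Kif23 (0.87) and the checkpoint kinase Bub1 (0.76). Of 37 DNA replication genes, 10 were higher (27%, near the share of all genes) and 0 lower, led by the helicase subunit Mcm4 (0.68) and the ribonucleotide reductase subunit Rrm1 (0.67). Scaling reduced these counts to 10 and 5 with centring, where the higher calls over all genes went from 2636 to 1475. The replication count was also moved by single libraries, being 19 without replicate 2 of MLL-AF9 DMSO and 6 without replicate 2 of MLL-AF9 MI-2-2. Of 21 G1 genes, 10 were higher (47.6%), among them the kinase inhibitor Cdkn2c (1.40) and cyclin Ccne2 (0.90). The 3 lower (14.3%, against 11% of all genes) were Cdkn1c (-2.33), Ccnd2 (-0.82) and Ccnd1 (-0.80).

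Genes of the Bcl2 family, whose members block or promote cell death, were higher for 7 of 16 (43.8%, against 23.5% of all genes) and lower for 1 (6.25%, against 11%). Bcl2, which blocks death, rose in MLL-AF9 (1.08) and had responses of 0.00 in MLL-AF6 and -0.67 in MLL-AF1p, a difference of 1.41. The inhibitors of death Mcl1 (0.61) and Bcl2a1d (1.23) and the death-promoting Pmaip1 (0.66) were higher, and the death-promoting Bbc3 (-0.66) was lower, and the Bcl2a1 genes are near-identical copies that can exchange reads. Lysosome genes rose in MLL-AF9, MLL-AF6 and MLL-AF1p (26, 27 and 16 of 30, against 28.5%, 18% and 19.1% of all genes). In the contrast 9 were higher (30%, against 23.5% of all genes). The 2 lower (6.67%, against 11%) were Ctsh (-2.17) and Ctsd (-0.44).

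Metabolic and stress lists had counts that moved with single libraries. Of 24 glycolysis and hypoxia genes 5 were higher (20.8%, below the 23.5% of all genes) and 0 lower. The higher count ran from 2 to 11 as single libraries were left out, with 11 without replicate 1 of MLL-AF6 DMSO. The glucose transporter Slc2a3 (1.67) was among the 5. Of 29 ATF4, serine and tRNA synthetase genes 6 were lower (20.7%, against 11% of all genes) and 1 higher, and the lower count was 15 without replicate 1 of MLL-AF9 DMSO and 3 without replicate 2 or replicate 3. The mean log2 level of this list in the DMSO libraries of replicates 1, 2 and 3 was 4.52, 5.70 and 5.13 in MLL-AF9, 4.85, 5.74 and 5.15 in MLL-AF1p and 4.87, 5.38 and 5.31 in MLL-AF6. It was lowest in replicate 1 and highest in replicate 2 of each construct, and the part of this in the counts was not tested. Of 28 cholesterol and fatty acid genes 2 were higher (7.14%) and 1, Mvd (-0.83), was lower (3.57%). The cholesterol counts were 0 higher and 5 lower with centring, 5 and 3 without replicate 2 of MLL-AF1p DMSO, 1 and 5 without replicate 1 of MLL-AF1p DMSO, 0 and 3 without replicate 2 of MLL-AF9 DMSO and 0 and 2 without replicate 1 of MLL-AF9 MI-2-2. Leaving out any other library gave 1 or 2 higher and 1 lower. NRF2 and iron genes gave 4 higher (19%) and 6 lower (28.6%) of 21, with Nqo1 at -1.03. The p53 targets gave 5 higher (25%) and 3 lower (15%) of 20, near the 23.5% and 11% of all genes.

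**Figure D4:**
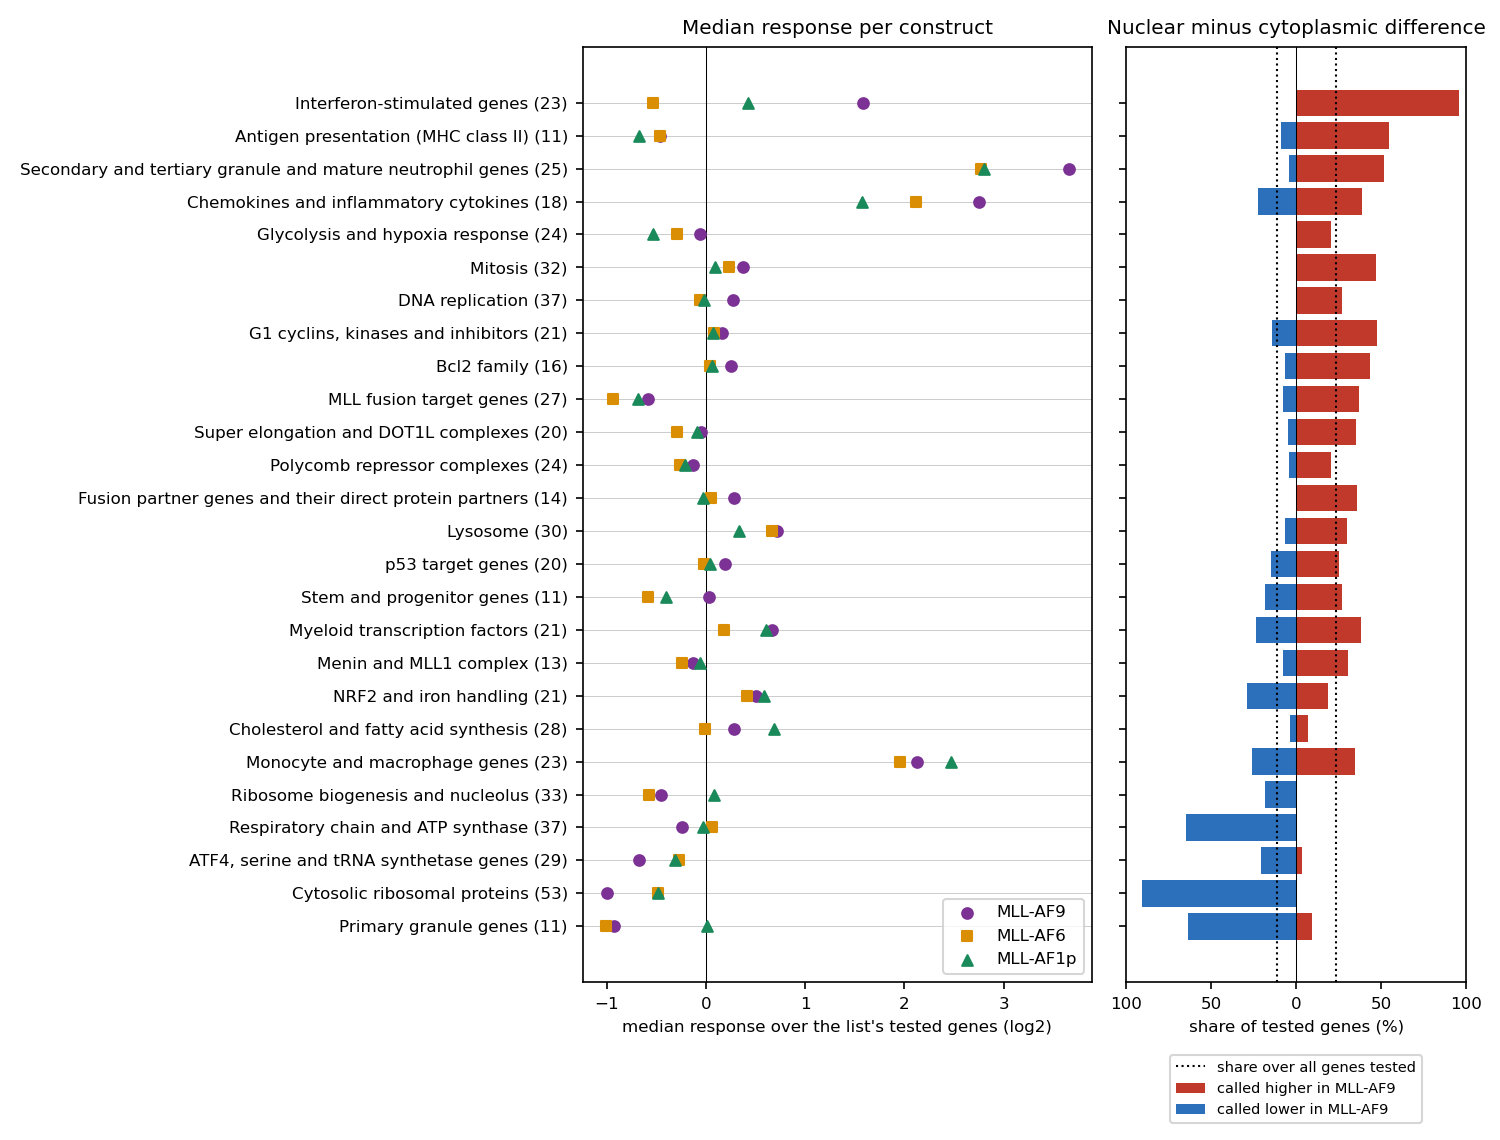
Left, the median response to MI-2-2 (log2) of each gene list in the 3 constructs, with the number of tested genes in brackets; right, the share of those genes called higher (red) or lower (blue) in MLL-AF9, with dotted lines at 23.5% and 11%, the shares over all genes. The lists are ordered by their median difference, and interferon-stimulated genes and cytosolic ribosomal proteins have the largest shares called higher and lower among the 26 lists.

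Few genes changed in opposite directions by partner class. In all, 74 genes (0.658%) rose in MLL-AF9 and fell in both others, and 9 (0.0801%) fell in MLL-AF9 and rose in both others. With centring these became 31 and 23, and without replicate 1 of MLL-AF9 DMSO they became 118 and 21. Besides Mef2c, the rising group held Pyhin1, an interferon-inducible DNA sensor family gene (difference 3.23), Nlrp10 (2.25), the thrombin receptor family gene F2rl2 (1.68), the signalling regulator Rgs18 (1.53) and the immunity GTPase Irgm2 (1.49). Pyhin1 had an RPKM of 0.55, 0.29 and 0.75 in MLL-AF9 DMSO and 3.02, 1.97 and 1.99 in MLL-AF9 MI-2-2, against 57.9 to 76.8 and 10.3 to 12.5 in MLL-AF6. Its MLL-AF9 level stayed lowest under both conditions.

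The falling group was small in size of change as well as in number. Nkg7 (difference -1.33), the mitochondrial dioxygenase Ethe1 (-0.95), the integrin Itga1 (-0.90), Thap4 (-0.66), Rilpl2 (-0.65) and Cyc1 (-0.60) were the 6 largest. Ethe1 had an RPKM of 33.2, 34.1 and 35.5 in MLL-AF9 DMSO and 25.4, 27.6 and 28.1 with the drug. It rose in MLL-AF6 from 14.5, 12.6 and 15.7 to 19.2, 21.3 and 19.6, and in MLL-AF1p from 19.2, 16.4 and 18.4 to 30.6, 31.0 and 30.8. The groups did not overlap in any construct.

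Responses of one direction in all constructs were more numerous. In all 3 constructs 971 genes rose (8.64%) and 1276 fell (11.4%), and 99 rises and 9 falls had a size of at least 2 in each. Of these 2247 genes, 1213 (54%) had a 95% interval of the difference within 1.5-fold, near the 54.7% of all genes. In the contrast 820 of the 2247 were called, where 34.5% of all genes were. The NAD-consuming enzyme Bst1 (3.81, 4.72 and 2.80), the peptidoglycan-binding protein Pglyrp1 (2.67, 3.11 and 2.11) and the proton pump subunit Atp6v0d2 (6.02, 7.37 and 4.79) rose strongly with differences nearest 0. Ifitm1, the fucosyltransferase Fut8 and the prostaglandin dehydrogenase Hpgd fell by 2.34, 2.21 and 3.97 in MLL-AF9, by 2.15, 2.03 and 3.30 in MLL-AF1p and by 2.59, 2.57 and 4.29 in MLL-AF6. In these genes the MLL-AF9 response lay between the other 2, which follows from choosing the differences nearest 0. Such a difference does not mean that the 3 constructs responded alike. For Atp6v0d2 both parts of the contrast were called, with opposite signs. Under quantile normalization the difference of Ifitm1 was 0.54 and was called (limma, adjusted p = 0.00135).

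The contrast can also be read as a change of the level difference between constructs. MLL-AF9 differed in level from the mean of the others in 7004 genes under DMSO (62.3%) and in 5197 under MI-2-2 (46.2%), and the median size of that difference went from 0.31 to 0.22. The 2 level comparisons share no libraries. They shared call and sign for 3428 genes, 48.9% of the DMSO calls and 66% of the MI-2-2 calls, and were called with opposite signs for 344 genes. Level differences of at least 2 were seen for 236 genes under DMSO and 159 under MI-2-2.

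Many called genes started apart and ended without a called difference. Of the 2636 genes with a higher response in MLL-AF9, 1260 (47.8%) were lower in MLL-AF9 under DMSO and not called under MI-2-2, and 447 (17%) were lower under both. A further 485 (18.4%) were not called under DMSO and higher under MI-2-2, as Oas2 was. Of the 1237 genes with a lower response, 524 (42.4%) were higher in MLL-AF9 under DMSO and not called under MI-2-2, and 200 (16.2%) were not called under DMSO and lower under MI-2-2. These shares use the same values as the contrast and describe it.

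**Figure D5:**
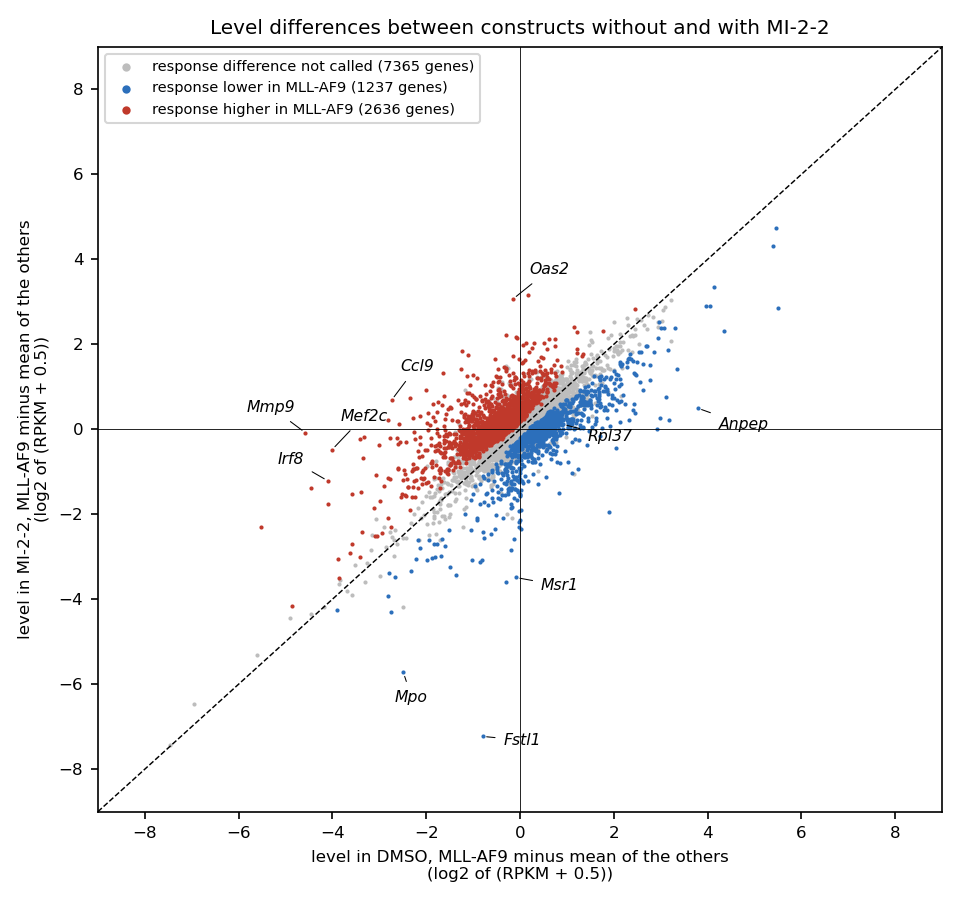
Level difference of each tested gene between MLL-AF9 and the mean of the others, as log2 of (RPKM + 0.5), in DMSO (horizontal) and in MI-2-2 (vertical). Colours mark the 2636 genes whose response was called higher and the 1237 called lower in MLL-AF9, and the dashed line marks an equal level difference. Mmp9 and Mef2c move from far left to near 0, and Fstl1 and Msr1 from near 0 to far below it.

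Depth was 21.2 to 56.3 M counted reads per library, recovered from the RPKM steps, and MLL-AF1p libraries were the deepest. With reads thinned to the smallest library, 2482 genes were higher and 1173 lower. The 11 expected myeloid markers summed to 3924 RPKM or more in every library. One of them, Mpo, was under 1 RPKM in the MLL-AF9 and the MLL-AF6 DMSO libraries. The B cell marker Ms4a1, the T cell marker Cd3e and the globin genes were listed at 0 in all libraries. Other lineage markers passed the filter: 3 B cell, 1 T cell, 1 erythroid, 3 megakaryocyte and 2 mast cell and basophil genes. Of the last list, Hdc had an RPKM of 52.0, 2.69 and 6.16 in MLL-AF9 DMSO. The stromal and lymphoid marker Thy1 and the endothelial and myeloid marker Pecam1 moved with the constructs. Thy1 was 2.36 to 6.6 RPKM in MLL-AF9 DMSO, 704 to 1297 in MLL-AF6 DMSO and 625 to 670 in MLL-AF1p DMSO, and Pecam1 was 9.47 to 13.1, 53.8 to 69.9 and 79.5 to 84.0 in the same groups. Both fell in each construct. Of the 11 markers of endothelium and stroma, 8 were under 1 RPKM in every library, and their part in the results was not tested.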

How the data were processed

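PolyA RNA of 18 libraries, 3 in each of 6 groups, was sequenced after a TruSeq preparation that keeps no strand, per the labels' protocols. The values are RPKM per gene, deposited by the authors in 1 table, and the depth per library follows from their steps. The mm9 build is named per the submitters' processing notes, as are edgeR, HTSeq, Bowtie2 2.0.0.7 and CASAVA 1.8.2, without roles. Counting rules and filters are not given in the sources used here.

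From these values log2(RPKM + 0.5) was fitted with limma 3.58.1 in R 4.3.3 for genes that reached 1 RPKM in 3 or more libraries, as 6 group means with 12 residual degrees of freedom and a trended prior variance. p-values were adjusted by Benjamini-Hochberg over all 11238 genes, and the threshold was 0.05. A log2 fold change on this scale understates the change of genes near or under 0.5 RPKM. The RPKM times gene length gave whole reads for 99.9% of values, within 0.05 read, and 21.2 to 56.3 M reads per library, which were used for voom and for thinning. The code was tested on simulated data.

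Named were the 10 largest differences in each direction called in both parts of the contrast with a group mean of at least 5 RPKM, the 6 largest with opposite responses in each direction, up to 3 genes per list, the 3 rises and 3 falls shared by all constructs with a difference nearest 0, and 25 genes fixed by interest. Other list members are given with their role and were chosen after their values were seen. The members and lists were chosen with earlier results of these data known. Same-numbered libraries did not all correlate over 0.1 and the labels name no shared batch, so the main fit used replicate numbers only as names. In 14 of 18 libraries the best correlation was still with the same number. Alternatives were a pseudocount of 0.1, no filter, quantile normalization, centring on the median gene, a replicate block, voom, thinned reads, a prior variance without trend and leaving out each library. Predicted genes and 25 names turned into numbers were counted and not named, and some list members are counted but not reported here by name. Genes with near-identical copies, such as ribosomal proteins and Gp49a, can exchange reads.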

Additional observations from a re-analysis of the deposited data

Results flagged for a closer look

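In 27 of the named or listed genes reported here the constructs with a cytoplasmic partner were called in opposite directions and the difference between their responses was itself called by limma. Over all tested genes the MLL-AF6 and MLL-AF1p responses differed for 3495 (31.1%). The share of all genes with opposite calls is not given here, so the 27 are not to be read as an excess. The values that follow are the MLL-AF6 response minus the MLL-AF1p response, in log2. Of the interferon-stimulated genes, Oas2 was at -2.61, Rtp4 at -3.56, Oas3 at -2.46, Isg15 at -2.01, Oas1a at -1.13 and Trim30a at -0.86. Genes of ribosome production were also lower in MLL-AF6, with Bop1 at -1.34, Rrp12 at -1.23, Nop2 at -1.09, Polr1e at -0.99, Mybbp1a at -0.95, Rrp9 at -0.92, Ebna1bp2 at -0.88 and Ubtf at -0.73. The fatty acid synthesis genes Fasn and Acaca were at -1.61 and -0.95. Of the chromatin and elongation lists, Hcfc1 was at -0.69, Paf1 at -0.65, Wdr5 at -0.59 and Mllt6 at 0.79. Cell cycle genes went both ways, with the inhibitor Cdkn2a at 1.49, Nusap1 at 0.83, Anln at 0.64 and E2f4 at -0.63. The lysosomal protease gene Ctsl was at 1.07, the costimulatory ligand gene Cd80 at 0.80 and the respiratory chain gene Sdhc at 0.36. Groups of 3 libraries were not tested for a single sample that stands apart.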

How the results depend on the processing

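Of 3094 values of 119 named genes under the alternatives, 2963 kept direction and side of the threshold, 64 lost a call, 37 gained one and 30 changed sign.

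Median centring gave 1475 higher and 2093 lower genes in the contrast, 1302 and 1676 against MLL-AF6, 2379 lower against MLL-AF1p, 1478 lower for MLL-AF6 singled out, 661 and 901 called in both parts, and 31 rising and 23 falling oppositely. Quantile normalization gave 1614 higher genes in the contrast, 1469 higher against MLL-AF6, 1595 lower for MLL-AF6 singled out, 734 higher in both parts and 37 rising oppositely. The medians of all genes move with these scalings by construction. Leaving out 1 library gave 2138 to 3117 higher and 982 to 1420 lower genes, and 57 to 118 rising and 6 to 21 falling oppositely, the highest of the last 2 ranges without MLL-AF9 DMSO replicate 1.

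The replicate block gave 3175 higher and 1517 lower genes and 17 falling oppositely. Of 45 pairs of same-numbered libraries, 33 had deviations that correlated over 0.1, so the rule that every pair must do so was not met. In 14 of 18 libraries the best correlation was with the same number, a hint from the data. The block called 13 genes of the ATF4 list lower in place of 6.

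The 30 changes of sign were in genes whose difference lay near 0 and was not called. With a pseudocount of 0.1 Bst1 was at -0.0078 and Atp6v0d2 at 0.31. With centring Bst1 was at -0.091, Pglyrp1 at -0.086, Ifitm1 at -0.11, Fut8 at -0.049, Psip1 at -0.13 and Aff1 at -0.063. With quantile normalization Bst1 was at -0.030, Hpgd at 0.33, Psip1 at -0.10 and Aff1 at -0.061. With voom Bst1 was at -0.054 and Atp6v0d2 at 0.68. Leaving out single libraries gave -0.11 to 0.19 for Bst1, -0.43 to 0.57 for Pglyrp1, -0.17 to 0.14 for Atp6v0d2, -0.059 to 0.13 for Ifitm1, -0.083 to 0.068 for Psip1 and -0.029 to 0.15 for Aff1. The cause of these changes was not tested. Depth limits genes under about 1 RPKM most.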
